A study of Mus musculus with 3 samples.

Results

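The Tcf/Lef genes described here are Tcf7l2, Tcf7l1, Tcf7 and Lef1, set against the binding sites listed for LMX1B in mouse limb buds. Chromatin immunoprecipitation and sequencing (ChIP-seq) with the polyclonal antibody BMO8 was done on C57BL/6 limb buds at embryonic day 12.5, from pooled fore- and hindlimbs (2 runs of 48 limb buds each, per the labels). The validation ChIP is the sample whose title calls it a validation of BMO8, and its track name gives no genotype. The first ChIP is marked wild type by its track name. Input DNA came from chromatin of wild-type and mutant buds together, per its label, and no interval list of it was analysed here. Each ChIP is 1 sample without replicates, so the values below are descriptions without tests. Because whole buds were pooled, dorsal and ventral cells, and fore- and hindlimbs, cannot be told apart. The 4 genes were chosen by the positions of listed intervals, with earlier results of these lists known. An interval (a region listed as bound) counted for a gene when its midpoint lay in the gene's domain, which is the gene body with its flanks, each up to the closest protein-coding gene and at most 1 Mb long. Of 5788 intervals in both lists, 16 met this rule: 11 of the 4501 validation intervals and 5 of the 1287 first-ChIP intervals.

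As background, TCF/LEF proteins are high-mobility-group (HMG) box factors that sit on DNA at Wnt target genes. With β-catenin they activate these genes, and without it they hold Groucho-type corepressors of the TLE family there. LMX1B is the LIM-homeodomain factor of the dorsal limb mesenchyme, switched on by Wnt signalling from the dorsal ectoderm. Tcf7l2 is known as a marker of the connective tissue cells that surround limb muscle. It is a different gene from the E-protein gene Tcf4, although Tcf4 is an older name of Tcf7l2. Expression was not measured here, so no cell type could be checked against its markers.

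One of the intervals covered the main start of Tcf7l2, and the sequence there is printed because it is the one place where an interval met a Tcf/Lef promoter. The RefSeq windows run from 250 bases before to 50 bases after a start site (build GRCm38.p6, whose coordinates are those of mm10, plus strand). The first window is chr19:55741560-55741859, and the validation interval covered its last 186 bases. The second is a start site inside the gene, chr19:55895071-55895370, which no interval reached. Capitals mark the core CTTTG of TCF/LEF motifs on either strand, read as CAAAG on the other.
Tcf7l2 main start: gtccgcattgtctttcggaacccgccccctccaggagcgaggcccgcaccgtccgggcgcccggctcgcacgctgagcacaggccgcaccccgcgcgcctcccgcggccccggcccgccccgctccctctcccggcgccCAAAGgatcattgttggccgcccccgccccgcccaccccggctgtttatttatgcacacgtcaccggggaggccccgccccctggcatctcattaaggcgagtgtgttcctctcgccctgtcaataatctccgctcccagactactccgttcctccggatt
Tcf7l2 internal start: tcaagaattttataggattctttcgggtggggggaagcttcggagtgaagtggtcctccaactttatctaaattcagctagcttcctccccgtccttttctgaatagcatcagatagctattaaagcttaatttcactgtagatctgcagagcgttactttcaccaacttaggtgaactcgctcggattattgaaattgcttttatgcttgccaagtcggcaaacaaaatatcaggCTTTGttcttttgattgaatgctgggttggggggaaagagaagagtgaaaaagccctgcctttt
The main window is 70% G and C and the internal one 42%, against a median of 52.7% over all 32851 RefSeq windows. The summit of the validation interval (its highest point) lay 46 bases after the main start site.

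Tcf7l2, which encodes a TCF factor of the Wnt pathway, held most of the intervals. Its gene body (chr19:55741797-55933659, plus strand) is 192 kb long, and its domain runs for 660 kb between Vti1a, a gene of vesicle transport, and Habp2, which encodes a protease. The domain held 7 validation intervals and 4 first-ChIP intervals. All 4 of the first ChIP overlapped a validation interval by at least 1 bp and are called shared. The 3 remaining validation intervals lay within 8 kb of the gene start.

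The strongest site of the validation list lay far downstream of Tcf7l2. The validation interval chr19:56086303-56087450 had a summit score of 55, the highest of all 4501. The score is a whole number without a stated unit, given by the authors for each summit, and is read here only within its own list. The overlapping first-ChIP interval chr19:56086465-56086953 scored 28, above 86.9% of the first list. Its summit was 32 bp away from that of the validation interval. The site lies 153 kb beyond the end of Tcf7l2 and 200 kb short of Habp2. It is outside protein-coding genes but inside the body of the lncRNA gene Gm52387 (chr19:56081476-56107851).

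A second site followed 13.2 kb further on in the validation list. The validation interval chr19:56099515-56100707 scored 32, above 98.9% of its list. The first-ChIP interval chr19:56099633-56100712 scored 40, above 97.0% of its own. Of the 5 shared pairs at Tcf/Lef genes this one had the longest overlap, 1075 bp, and the closest summits, 16 bp apart. Its midpoints lay 61.5 bp apart, farther than those of the Lef1 pair (17 bp) and the upstream Tcf7l2 pair (19 bp). The midpoints of the other pairs were 119.5 and 167.5 bp apart. The order of the neighbouring sites was not the same in the lists: the nearer one to Tcf7l2 scored higher in the validation ChIP, and the farther one in the first ChIP. Both lie in Gm52387, and the farther one is 166 kb from the end of Tcf7l2 and 187 kb from Habp2.

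Another shared site lay upstream of Tcf7l2. The validation interval chr19:55662350-55663147 scored 30, above 98.5% of its list, and the first-ChIP interval chr19:55662533-55662926 scored 23, above 69.5%. The site is 79.0 kb before the gene start but 35.3 kb from the gene body of Vti1a. By distance to gene bodies it is therefore nearer to Vti1a than to Tcf7l2. The distance to the start of Vti1a was not taken. It lies in the lncRNA gene 4930552P12Rik (chr19:55640589-55702204).

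The remaining shared site was the only one of the 4 inside Tcf7l2. It lies 73.5 kb into the gene, at chr19:55814847-55815703 in the validation list and chr19:55814798-55815513 in the first list. The score was 17 in the validation ChIP, above 86.6% of that list, and 17 in the first ChIP, above 13.6% of that list. The same number therefore stands in the upper part of one list and near the low end of the other. Whether it falls in an exon or an intron was not resolved, since the gene table used has no exons.

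The intervals at the start of Tcf7l2 appeared in the validation list alone. The interval on the start itself, chr19:55741674-55742018, scored 9, with 7.82% of the list below it, and at 345 bp it was one of the narrow ones, with 2.09% of the list narrower. It also lies in Gm31734, an lncRNA gene that overlaps the start. The next, chr19:55746271-55746987 and chr19:55749455-55750111, lie 4.83 and 7.99 kb into the gene. They scored 13 and 14, above 65.7% and 73.8% of the list. No first-ChIP interval lay closer to the gene start than 73.4 kb.

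**Figure D1:**
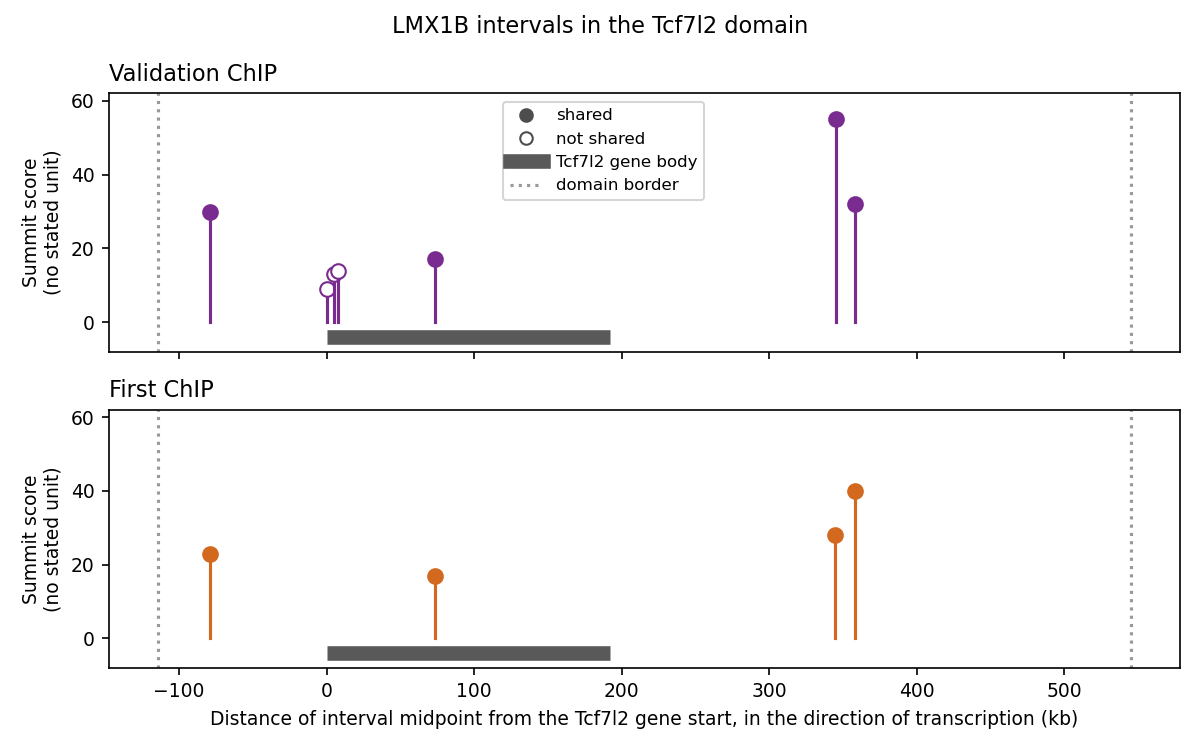
Summit scores (vertical, without a stated unit) of the 7 validation and 4 first-ChIP intervals in the Tcf7l2 domain, by distance of their midpoint from the gene start (horizontal, kb). Filled points are shared intervals, open points are not shared, and the bar is the gene body; the highest validation point (55) stands 345 kb after the gene start, and the 3 open points sit at the start.

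Lef1, a TCF/LEF factor needed for limb outgrowth together with Tcf7 in the mouse, had 2 validation intervals and 1 first-ChIP interval in its domain. The gene (chr3:131110297-131224357, plus strand) has a domain of 503 kb, of which 380 kb lie upstream, towards the ribosomal protein gene Rpl34. The shared site, chr3:130867101-130867711 in the validation list and chr3:130867169-130867609 in the first list, lies 243 kb before the Lef1 start and 137 kb from Rpl34. It scored 15 in the validation ChIP, above 79.2% of the list, and 23 in the first ChIP, above 69.5%. It is inside the lncRNA gene Gm36520 (chr3:130851847-130868777). The other validation interval, chr3:130737416-130737905, scored 10 and is 7.26 kb from Rpl34. None of the 3 lay in the Lef1 gene body. All 3 were nearer to the gene body of Rpl34 than to that of Lef1.

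Tcf7l1, whose product acts mostly as a repressor at Wnt targets, had 2 validation intervals, both inside the gene (chr6:72626371-72789045, minus strand). The interval chr6:72711371-72712164 scored 20, above 92.5% of the list, and lies 77.3 kb after the gene start. The interval chr6:72678810-72679282 scored 17, above 86.6%, and lies 110.0 kb after the start, where the gene shares its span with the lncRNA gene Gm31391. Although their scores were in the upper part of the validation list, no first-ChIP interval lay in the domain, and the nearest to Tcf7l1 was 187 kb away, in Mat2a.

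Tcf7, best known for its part in T cell development and a partner of Lef1 in the limb, was without any listed interval across its domain of 147 kb. The gene (chr11:52246527-52283383, minus strand) overlaps the end of Skp1. The nearest interval was a validation interval 549 kb away, in Fstl4, with a score of 9. The nearest first-ChIP interval was 744 kb away, in Col23a1. An empty domain says only that nothing there entered the deposited lists. Per Mb of domain, the validation list held 10.6 intervals for Tcf7l2, 8.92 for Tcf7l1, 3.98 for Lef1 and 0 for Tcf7, and the first list held 6.06 for Tcf7l2, 1.99 for Lef1 and 0 for Tcf7l1 and Tcf7.

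**Figure D2:**
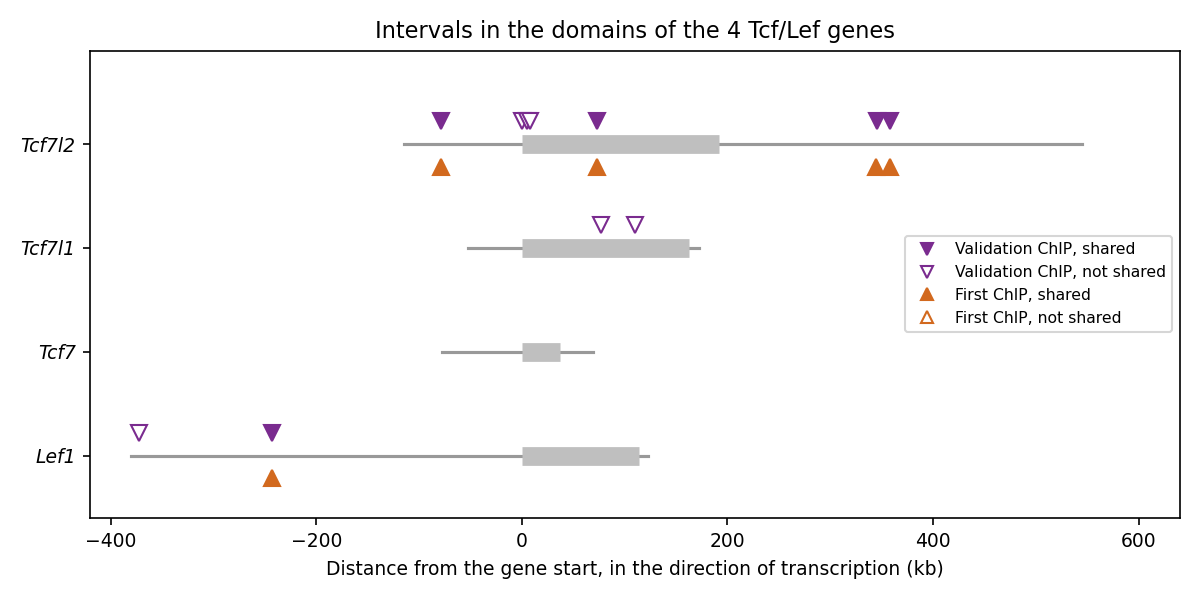
Domains (thin lines) and gene bodies (grey bars) of the 4 Tcf/Lef genes, aligned at the gene start and drawn in the direction of transcription (horizontal, kb). Downward triangles are validation intervals and upward triangles first-ChIP intervals, filled where shared; the shared intervals lie in the domains of Tcf7l2 and Lef1 alone.

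Domain borders decide which intervals count. Just beyond the Lef1 domain, 0.258 kb outside it, a first-ChIP interval at Rpl34 (chr3:130729856-130730427) scored 28 and was not shared. Just beyond the Tcf7l2 domain, 29.7 kb outside it in Vti1a, a validation interval scored 12 and was not shared. The nearest first-ChIP interval outside that domain was 251 kb from its border, also in Vti1a. On the Habp2 side the next first-ChIP interval was 1933 kb beyond the border.

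All 5 shared pairs were among the 735 regions of a further deposited track named Active Regions, which holds all 707 shared first-ChIP intervals (100%) and so does not set these apart. The summits of the 5 pairs lay 16 to 96 bp apart, on positions that are multiples of 16 bp for 94.4% of validation and 96.3% of first-ChIP summits, so gaps of this size are a few steps of that grid. The first-ChIP interval lay wholly inside the validation interval in 3 pairs: the upstream and nearer downstream ones of Tcf7l2 and that of Lef1. Of the 11 validation intervals, 5 (45.5%) were shared, against 15.6% in the whole list; of the 5 first-ChIP intervals all were shared, against 54.9%. These shares are descriptions, since the genes were picked with shared sites in view.

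The shared sites of these genes were also set against lncRNA gene bodies, a description that was not planned beforehand. Of the 5, 4 lay outside protein-coding gene bodies, and all 4 were inside an annotated lncRNA gene body. In the whole list, 89 of 431 shared intervals outside protein-coding genes (20.6%) were. The 4 sites fall in 3 lncRNA genes, as Gm52387 holds a pair of them, so they are not 4 separate cases. They also come from genes chosen by the positions of intervals, so the share is a description. Gene bodies come from the RefSeq table, and whether these RNAs are made in the limb bud was not measured.

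**Figure D3:**
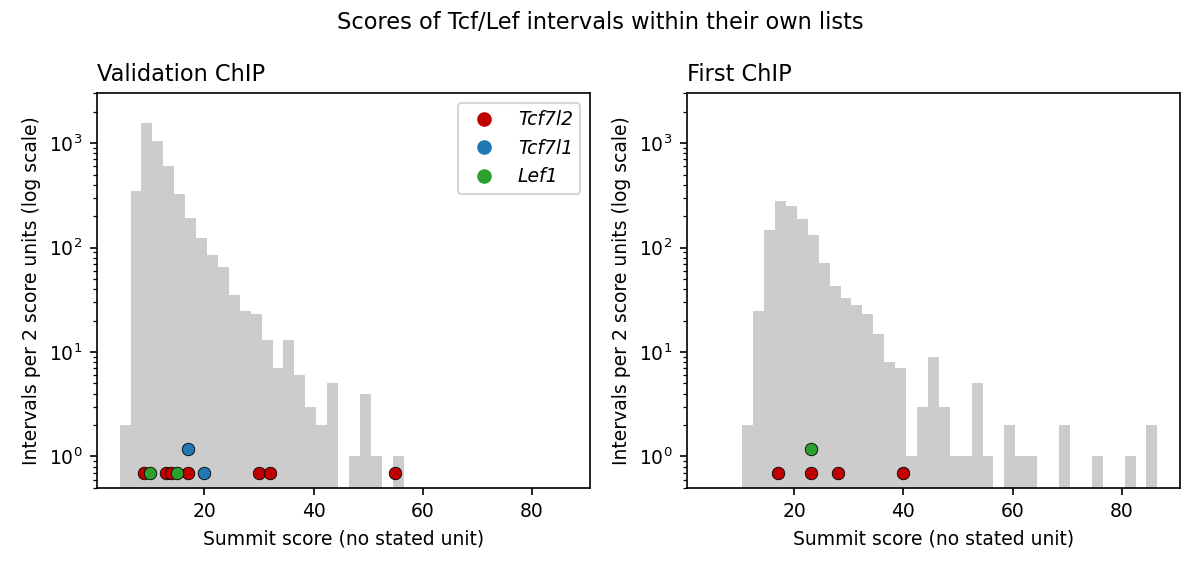
Histograms of summit scores in the validation list (left) and the first list (right), with the number of intervals per 2 score units on a log scale. Coloured points mark the scores of intervals in the Tcf7l2, Tcf7l1 and Lef1 domains and are stacked only for visibility; the Tcf7l2 point at 55 is the end of the validation distribution, and the points of the first list run from 17 to 40.

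The number of sites at Tcf7l2 can be set beside all 21761 protein-coding genes. At least 1 shared interval lay in 3.71% of domains, at least 1 validation interval in 16.4% and at least 1 first-ChIP interval in 6.61%. Among the 4 Tcf/Lef genes these numbers were 2, 3 and 2. Tcf7l2, with 4 shared intervals, was one of 45 genes (0.207%) with 4 or more. Its 7 validation intervals were matched or passed by 0.689% of genes. Long domains catch more intervals, and 7.37% of domains were longer than that of Tcf7l2. Of the 1604 domains at least as long, 2.31% had 4 or more shared intervals and 7.42% had 7 or more validation intervals. For Lef1, 19.5% of domains at least as long as its own had a shared interval. Genes with more shared intervals than Tcf7l2 included Zfp608 with 9, and Dnm3, Hdac9 and Tbx18 with 7 each. Neighbouring genes share the stretch between them, so 1 interval can count for more than 1 gene.

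**Figure D4:**
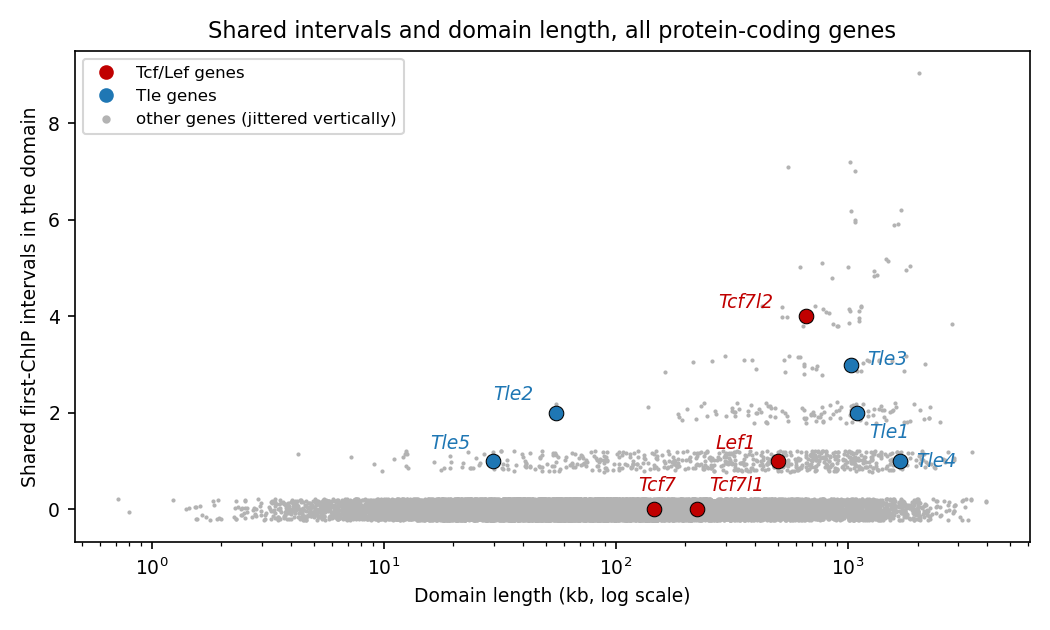
Shared first-ChIP intervals in a gene's domain (vertical) against domain length (horizontal, kb, log scale) for all 21761 protein-coding genes. Red points are the Tcf/Lef genes and blue points the genes Tle1 to Tle5. Tcf7l2 stands at 4, Lef1 at 1, and Tcf7 and Tcf7l1 at 0.

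Promoters were then compared. The 4 genes have 9 RefSeq start windows, of which 1, the main start of Tcf7l2, overlapped a validation interval and none overlapped a first-ChIP interval. Over all windows the shares were 1.43% for the validation list and 0.813% for the first list. Letters of known motifs were searched on both strands. Of full TCF/LEF motifs, only CTTTGAA and CTTTGAT were searched, and they were in 0 of the 9 windows, against 5.14% and 3.73% of all windows. Their shared core CTTTG was in 7 of the 9, against 53.9%. The homeodomain letters TAATTA, which are part of TTAATTA, were in 0 of the 9, against 5.29%. The longer TTAATTA and the related TTAATAA were also in 0, against 3.07% and 3.54%. At the main start of Tcf7l2 the core stands once, at position -111 with the start site as position 1, and inside the interval. At the internal start it stands at position -14 and reads on as CTTTGTT, a form that was not searched. Of the 4 Lef1 windows, 2 overlap nearly fully and share their letters. The sequences of the other intervals were not used here, so their motifs were not searched.

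The partners of TCF/LEF proteins were examined in a list of 51 Wnt pathway genes grouped by role. Of these, 8 (15.7%) had a shared interval in their domain, against 3.71% of all protein-coding genes. A validation interval lay in 22 domains (43.1%, against 16.4%) and a first-ChIP interval in 11 (21.6%, against 6.61%). Corepressors and other inhibitors made up 6 of the 8, out of 12 such genes on the list. Of these 6, Tle2 and Tle5 have 1 interval in common, which counts for both. Neither β-catenin (Ctnnb1) nor its coactivators Bcl9, Bcl9l, Pygo1, Pygo2, Crebbp and Ep300 had an interval of either list, but 0 of 7 is close to what the all-gene shares of 3.71% and 16.4% give for so few genes. Of the destruction complex, which degrades β-catenin, 1 of 9 genes had a shared interval, Btrc (57.2 kb inside the gene from its nearer end). Of co-receptors, Lgr receptors, ubiquitin ligases and Dishevelled genes it was 1 of 10, Lrp6, a Wnt co-receptor gene, with the site 58.6 kb inside it. Of feedback genes and targets 0 of 13 had one, although 8 of the 13 had a validation interval, among them Sp5, Ccnd1, Wif1 and Dkk1; 0 of 13 is likewise close to the all-gene share of 3.71%. The list's median number of shared intervals per gene was 0, and its median domain of 188 kb is longer than the 77.9 kb of all protein-coding genes.

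All 5 TLE genes on the list had a shared interval in their domain. Tle1 to Tle4 encode the Groucho corepressors that TCF/LEF proteins bind, and Tle5 a shorter family member. At Tle1 (chr4:72109945-72200989, minus strand) the nearer of 2 shared sites overlapped the promoter window. It was chr4:72200877-72201361 in the validation list, with a score of 13, and chr4:72200581-72201145 in the first list, with 19. At Tle4 (chr19:14448072-14598183, minus strand) the shared site also overlapped the promoter. It was chr19:14597560-14598796 with a validation score of 16 and chr19:14597948-14598654 with a first-ChIP score of 22. Tle3 had 3 shared sites, the nearest 1.72 kb before its start in the validation list and 1.61 kb in the first list. That site scored 31 in the validation ChIP, above 98.8% of the list, and 28 in the first ChIP, above 86.9%. Tle2 and Tle5 lie next to each other on chromosome 10 and have a site in common between them, where the validation interval scored 21 and the first-ChIP interval 17. It is the only shared site of Tle5 and is nearer to Tle2, so the 5 genes do not have separate sites. Tle2 had another beyond its end, scoring 21 in the validation list and 44 in the first list. That site is nearer to Tle6, a gene that was not on the list of Wnt pathway genes. The farthest shared sites of Tle1 and Tle3, 427 and 423 kb away, were likewise nearer to other genes, Aldoart1 and Uaca. The domains of Tle1, Tle3 and Tle4 are 1093, 1033 and 1678 kb long, while those of Tle2 and Tle5 are 55.4 and 29.6 kb. Among all domains at least as long as that of Lef1, 19.5% had a shared interval. The last of the 6 corepressor genes, Ctbp2, had its shared site 194 kb away, nearer to another gene.

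**Figure D5:**
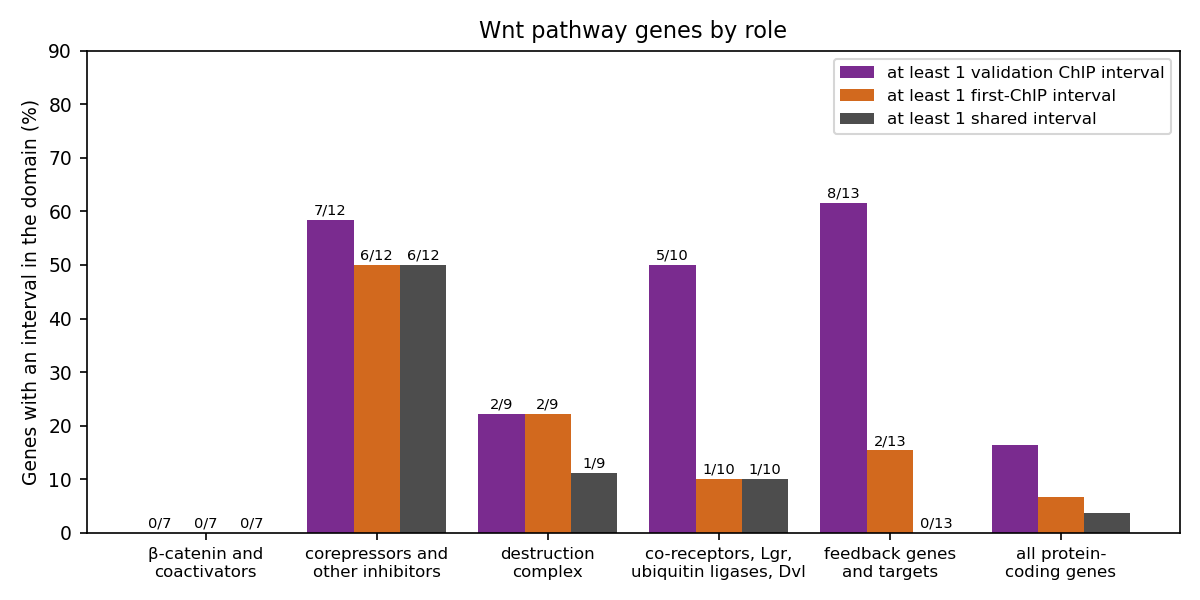
Share of Wnt pathway genes, by role, with at least 1 validation, first-ChIP or shared interval in their domain (vertical, percent), with the number of genes above each bar and all protein-coding genes at the right. The dark bar for shared intervals is highest for corepressors and other inhibitors (6 of 12) and is 0 for β-catenin and its coactivators and for feedback genes and targets.

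Finally, Tcf7l2 was placed among 13 genes of limb muscle connective tissue and its patterning. Of these, 6 (46.2%) had a shared interval, against 3.71% of all protein-coding genes and 19.5% of those with a domain at least as long as that of Lef1. A validation interval lay in 12 domains (92.3%, against 16.4% of all genes) and a first-ChIP interval in 10 (76.9%, against 6.61%). With Tcf7l2, they were Prrx1 (0.262 kb inside a gene end), Osr2 at 88.7 kb, Tbx4 at 99.9 kb, Osr1 at 170 kb and Meox2 at 315 kb. Osr1, an odd-skipped factor of connective tissue, had 5 shared intervals, 1 more than Tcf7l2, in a domain of 1334 kb. The sites of Osr2 and Tbx4 were nearer to other genes, Stk3 and Brip1. Tbx3, Tbx5, Pdgfra, Col3a1, Col6a3, Hoxa11 and Hoxd11 had no shared interval. The median domain of the 13 genes is 432 kb, against 77.9 kb for all protein-coding genes. Tcf7l2, chosen by its intervals, is itself one of the 6, and the list was made with earlier results of these data known. These shares are therefore descriptions, and those of 92.3% and 76.9% have no share of long domains beside them.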

How the data were processed

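The intervals and summit scores are the authors' own, deposited as tracks on build mm10; BWA is named in the submitters' processing notes, and no source used here names the peak caller, its threshold or the normalization. The authors' score comes without a unit, so the depth and counting error behind an interval are unknown. The copy of the first ChIP in the validation sample's tracks was identical in all 1287 intervals, with 1 summit on chromosome 1 different, and was counted once.

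Intervals were joined to their summits, sorted by midpoint into gene domains, and called shared with at least 1 bp in common, with Python 3.11.15 and numpy 2.4.6. Shared counts are of first-ChIP intervals. Genes came from a RefSeq table of GRCm38.p6, on chromosomes 1 to 19, X and Y, starting at 3 Mb or later; a gene that overlaps another does not limit its domain. Strand and start windows came from the RefSeq promoter table. Coordinates count from 1. The overlap and domain functions were checked on simulated data. Motif searches in the intervals were planned and not run without a genome sequence.

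The genes, lists and their members were chosen with earlier results of these data known. The named genes were the 4 Tcf/Lef genes and their bordering genes, and up to 8 genes of each list with a shared interval; genes named for having none, and the sites of each Tle gene, were added after their values were seen. The count of shared sites in lncRNA gene bodies was not among the planned results. No statistical test was made, because each group has 1 sample. Alternatives were stricter overlap, higher scores, other domains and all intervals.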

Additional observations from a re-analysis of the deposited data

How the results depend on the processing

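No paired analysis was possible because each group has 1 sample. The count of shared intervals at the 4 genes depended on the rules: it was 3 when at least 50% of each interval had to be covered by the other, where the upstream and nearer downstream sites of Tcf7l2 dropped out, 3 by nearest protein-coding gene and 1 within 50 kb of the gene, against 5. First-ChIP intervals numbered 3 by nearest gene and 1 within 50 kb, against 5, and validation intervals 6 within 50 kb, against 11. The median score of shared validation intervals alone was 30, against 17 for all. From the summit, the highest shared sites lay 153.1 and 166.3 kb from Tcf7l2 and 242.8 and 242.9 kb from Lef1. Wnt genes with an interval numbered 22 with all validation intervals, against 8 with shared ones. Muscle connective tissue genes numbered 3 within 50 kb, 3 by nearest gene, 12 with all validation and 10 with all first-ChIP intervals, against 6. The core CTTTG alone stood 11 times in the 9 windows, against 0 for CTTTGAA and CTTTGAT, with sites of the overlapping Lef1 windows counted in each window. Leaving out a replicate was not possible. Of 41 alternatives to these values, 28 left them within 1.5-fold, the distances from the summit included.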
